A study of Mus musculus with 6 samples.

Results

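The matrix metalloproteinases (MMPs), the ADAMTS proteases with the related ADAMTS-like proteins, and the tissue inhibitors of metalloproteinases (TIMPs) were examined in hearts overexpressing Pontin and in wildtype (WT) hearts under angiotensin II (Ang-II) stress. The members were chosen by name: every protein-coding gene whose symbol begins with Mmp and a digit or with Adamts, and *Timp1* to *Timp4*. This gave 51 of the 56748 genes in the table, made up of 23 Mmp, 19 Adamts, 5 Adamtsl and 4 Timp genes. Total RNA of heart tissue was sequenced from 3 Pontin cTG mice and 3 WT littermates, with each heart as its own library. All animals were male on a C57Bl/6 background, were 10 weeks old when treatment began, and were given Ang-II at 1.5 mg/kg BW/day from mini-osmotic pumps for 14 days, so that no library comes from an untreated heart. The transgene of Pontin cTG mice places human Pontin cDNA with a flag tag behind the mouse αMHC promoter, which drives expression in cardiomyocytes, and WT littermates lack it. The number of founder lines behind the transgenic animals is not given in the sources used here. Whole heart tissue mixes cardiomyocytes with fibroblasts, vessel cells and leukocytes, and in such bulk samples fewer cells of a type and less RNA per cell cannot be told apart.

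MMPs are zinc-dependent endopeptidases that are secreted or held at the cell surface as inactive precursors and cut collagens, gelatin, elastin and proteoglycans once their propeptide is removed. ADAMTS proteases cut proteoglycans such as versican and aggrecan, process procollagens, or cleave other matrix proteins, while ADAMTS-like proteins share the ancillary domains, lack the protease domain and bind microfibrils. TIMPs block the active site of these enzymes. In the stressed heart the balance between the proteases and TIMPs sets how fibrillar collagen is laid down and turned over, and fibroblasts and leukocytes are known sources of many of the secreted members.

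The 3 WT libraries held 13194038, 12436822 and 12772244 counts in the order of their replicate numbers, and the 3 Pontin cTG libraries 14584102, 15279201 and 16888124. *Ruvbl1*, the mouse gene of Pontin, had 215.8, 221 and 216.9 normalised counts in WT and 249.9, 250 and 240 in Pontin cTG replicates 1 to 3. All Pontin cTG values exceeded all WT values, although the log2 fold change of 0.18 (standard error 0.12) had an adjusted p of 0.999 in edgeR's quasi-likelihood test. Whether reads of the human cDNA were counted on the mouse gene is not given in the sources used here. Normalised counts are counts scaled to a common library size by the TMM method and serve to compare libraries. Levels per length (TPM, transcripts scaled to a constant sum per library) divide counts by the gene length and serve to compare genes. On the leading principal component of all genes, which held 47.9% of the variance, Pontin cTG replicate 2 scored 52, WT replicate 2 scored 17.1, and the other 4 libraries lay between -24.2 and -13.3. For genes named by the rule in the processing section, fold changes that lean on single libraries are also given without them, beside the value or in the closing section. For other members and markers, fold changes without single libraries are mostly not given. The study's text says in 1 place that a library standing apart in such an analysis was removed, but not which, and in another that no data were excluded, so whether either library is meant cannot be told.

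Of the 10 Mmp genes that lie side by side on chromosome 9 (GRCm39, chr9:7272514-7699586, a span of 427.1 kb), 5 had no count in any library. This cluster holds the secreted collagenases *Mmp13*, *Mmp8*, *Mmp1a* and *Mmp1b*, the stromelysins *Mmp3* and *Mmp10*, the macrophage metalloelastase *Mmp12*, matrilysin *Mmp7*, the enamel protease *Mmp20* and *Mmp27*. The genes of the cluster arose by duplication, so they are not independent examples of a shared feature. Several are textbook targets of the transcription factor AP-1, and the letters TGAGTCA, searched on both strands (TGACTCA on the other) in the 250 bases before the transcription start, were found in 7 of the 10 cluster genes and in 0 of the other 26 member genes that matched the RefSeq promoter table (GRCm38.p6). Members with no promoter searched, among them *Mmp2*, *Mmp9*, *Mmp19* and *Adamts5*, are not in these counts. Of all 32851 promoters in that table, 4.46% held the same letters, counted per promoter, whereas members were counted per gene. The letters TATAAA, an oriented element searched on the strand of the gene alone within 50 bases before the start, were present in 6 cluster genes and in *Adamts1* and *Adamtsl2*, against 2.63% of all promoters. The 120 bases before the start are shown for 5 cluster genes that hold the AP-1 letters, for *Adamts1*, the member with the smallest p in the comparison below, and for *Timp1*, the member that varied most between libraries among those tested. All are written 5′ to 3′ on the strand of the gene, and capitals mark the AP-1 and TATAAA letters, whose matches did not overlap each other.
*Mmp3* chr9:7445702-7445821 (plus strand): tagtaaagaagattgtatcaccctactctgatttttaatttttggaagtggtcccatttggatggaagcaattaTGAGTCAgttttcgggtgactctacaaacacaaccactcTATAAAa
*Mmp13* chr9:7272394-7272513 (plus strand): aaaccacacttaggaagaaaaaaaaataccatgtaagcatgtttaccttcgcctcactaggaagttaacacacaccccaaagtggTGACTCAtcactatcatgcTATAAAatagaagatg
*Mmp12* chr9:7347254-7347373 (plus strand): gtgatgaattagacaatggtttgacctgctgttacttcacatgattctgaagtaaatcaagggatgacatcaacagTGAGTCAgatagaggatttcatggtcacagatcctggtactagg
*Mmp10* chr9:7502222-7502341 (plus strand): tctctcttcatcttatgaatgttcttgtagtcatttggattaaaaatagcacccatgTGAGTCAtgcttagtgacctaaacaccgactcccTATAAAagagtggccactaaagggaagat
*Mmp1a* chr9:7464021-7464140 (plus strand): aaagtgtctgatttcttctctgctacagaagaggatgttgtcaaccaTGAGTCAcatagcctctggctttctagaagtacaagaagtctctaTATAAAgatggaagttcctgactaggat
*Adamts1* chr16:85803114-85803233 (minus strand): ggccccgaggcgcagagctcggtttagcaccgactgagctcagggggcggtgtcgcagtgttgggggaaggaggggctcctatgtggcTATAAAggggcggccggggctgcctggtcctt
*Timp1* chrX:20870046-20870165 (plus strand): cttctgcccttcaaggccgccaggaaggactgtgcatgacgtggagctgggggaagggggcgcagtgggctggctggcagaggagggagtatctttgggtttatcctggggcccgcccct

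In *Mmp3* the AP-1 letters began 46 bases before the start, in *Mmp13* 35, in *Mmp12* 44 (at the downstream start of its 2 in the table), in *Mmp10* 63 and in *Mmp1a* 73. Detected and undetected genes both held these letters. Of the 7 genes with them, *Mmp3*, *Mmp12* and *Mmp13* had counts, whereas *Mmp1a*, *Mmp1b*, *Mmp7* and *Mmp10* had 0 in all 6 libraries. A match of letters is a description of the sequence and not a measured binding site.

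Across the whole group, 45 of 51 members had at least 1 count and 6 had none (*Mmp1a*, *Mmp1b*, *Mmp7*, *Mmp10*, *Mmp20* and *Mmp21*). A count of 0 allows up to 3 counts per library, which is 0.178 to 0.241 CPM at these depths, for counting error only. The 35 members that passed the filter on low counts were 11 Mmp, 15 Adamts, all 5 Adamtsl and all 4 Timp genes. The remaining 10 had between 1 and 90 counts over the 6 libraries together and were not tested. These were *Mmp8*, *Mmp12*, *Mmp16*, *Mmp24*, *Mmp25*, *Mmp27*, *Adamts13*, *Adamts16*, *Adamts18* and *Adamts20*.

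Inhibitors, ADAMTS-like genes and a few proteases held most of the summed level. *Timp2* stood highest with a mean of 67.6 TPM over the 6 libraries, followed by the membrane-type protease *Mmp15* at 49.1, *Adamtsl5* at 44.9, *Timp3* at 33.5, gelatinase A (*Mmp2*) at 33.4, *Adamtsl4* at 20.4, *Adamts1* at 20.2, *Timp1* at 18.5, *Timp4* at 15.1 and *Mmp14* at 8.93 TPM. The leading 4 genes made up 50.1% and the leading 10 made up 80% of the level of all members, which in turn was 0.039% of the level of all genes. Neighbours in this order were not all separated. *Timp2* exceeded *Mmp15* in 6 of 6 libraries, and *Adamtsl5* exceeded *Timp3* in 6, but *Mmp15* exceeded *Adamtsl5* in only 4 and *Timp3* exceeded *Mmp2* in 4, with a mean log2 ratio of -0.0075 ± 0.25 (SD, n = 6) for the latter. *Adamtsl4* was above *Adamts1* in 3 of 6 libraries, so their order cannot be told. The levels of the 45 members with counts ran from *Timp2* down to *Adamts16* at 0.00334 TPM.

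**Figure D1:**
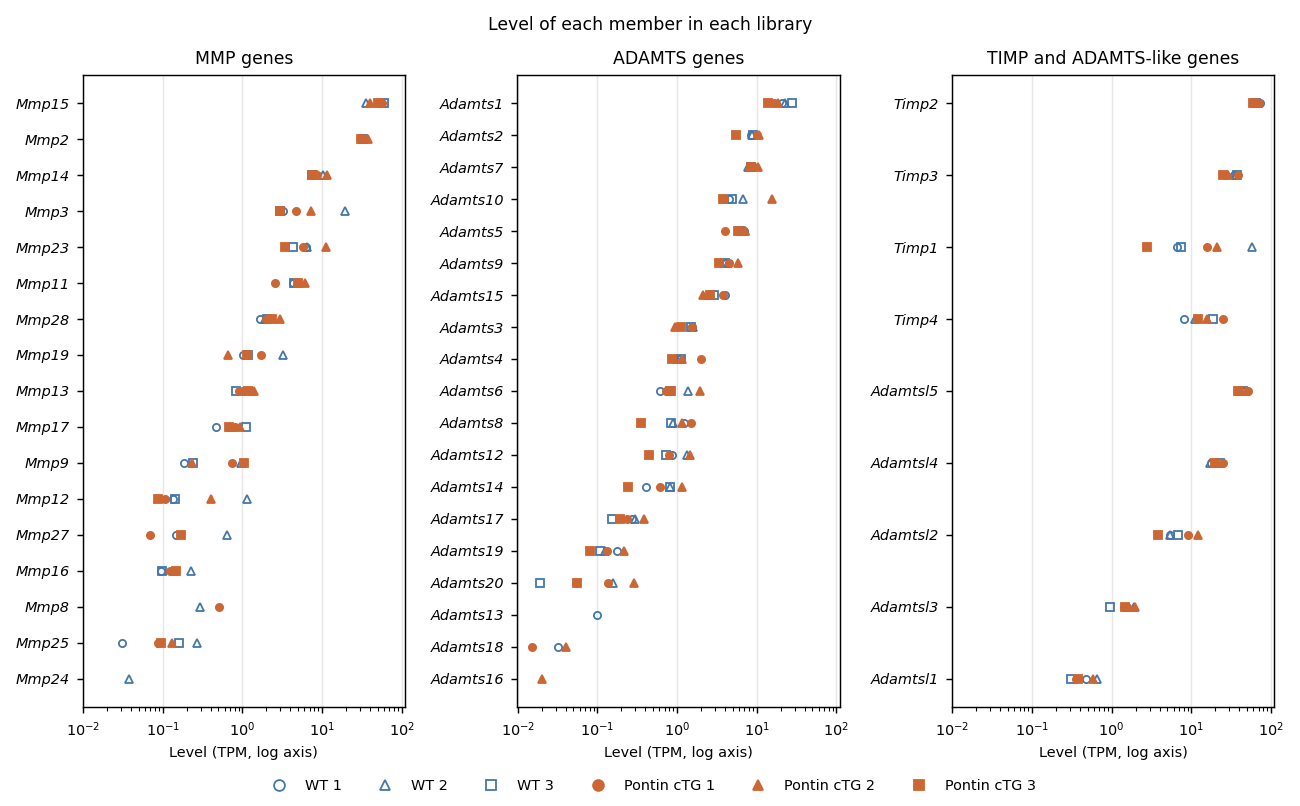
Level of each of the 45 members with counts in every library, in TPM on a log axis; open blue marks are WT and filled orange marks Pontin cTG libraries, with shapes for replicates 1 to 3, and a library at 0 is not drawn. *Timp2*, *Mmp15*, *Adamtsl5*, *Timp3* and *Mmp2* lie at the top with closely grouped marks, while *Timp1*, *Mmp3* and *Mmp12* have 1 WT mark far to the right of the others.

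Summed by family, the 4 Timp genes gave 121, 173.2 and 129.7 TPM in WT and 150.5, 134.3 and 99.6 TPM in Pontin cTG replicates 1 to 3. Mmp genes together gave 111, 121.1 and 116.8 TPM in WT and 118.6, 121.5 and 106.5 TPM in Pontin cTG hearts. The Adamts sum was 64.1, 67.6 and 69.1 TPM in WT and 59.7, 79.6 and 47.6 TPM in Pontin cTG hearts. For all of these families, and for Adamtsl with means of 70.9 ± 5.61 and 77.9 ± 12.1 TPM (SD, n = 3 each), the groups overlapped and the means differed by less than the larger SD.

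The comparison of Pontin cTG with WT hearts asks whether raising Pontin in cardiomyocytes alters the transcripts of the matrix-degrading system under Ang-II. No member passed an adjusted p of 0.05 in edgeR's quasi-likelihood test, and 0% of the 13888 genes tested did. At an unadjusted p under 0.05 in edgeR, 0 of 35 members were higher and 1, *Adamts1*, was lower, against 1.02% and 1.03% of all genes. DESeq2 and every other setting tried also called 0 members after adjustment. Groups did not overlap in 1 member that was higher in Pontin cTG hearts (*Adamts7*) and 1 that was lower (*Adamts1*), beside 4.7% and 3.63% of all genes in these directions. Of the 35 members, 20 had a log2 fold change above 0 (57.1%, against 50.2% of all genes), and their median was 0.037, against 0.0013 for all genes. By family, 8 of 11 Mmp genes were above 0 (median 0.083), 7 of 15 Adamts (median -0.015), 4 of 5 Adamtsl (median 0.14) and 1 of 4 Timp genes (median -0.15). Without Pontin cTG replicate 2, 12 members lay above 0 in place of 20. The adjusted p was 0.999 in edgeR for each of the 35 members, and the fold changes below are given with their standard errors. For 3 hearts against 3, the smallest p of an exact permutation test is 0.1, and whether the replicates differ by cage, litter or day is not given in the sources used here.

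**Figure D2:**
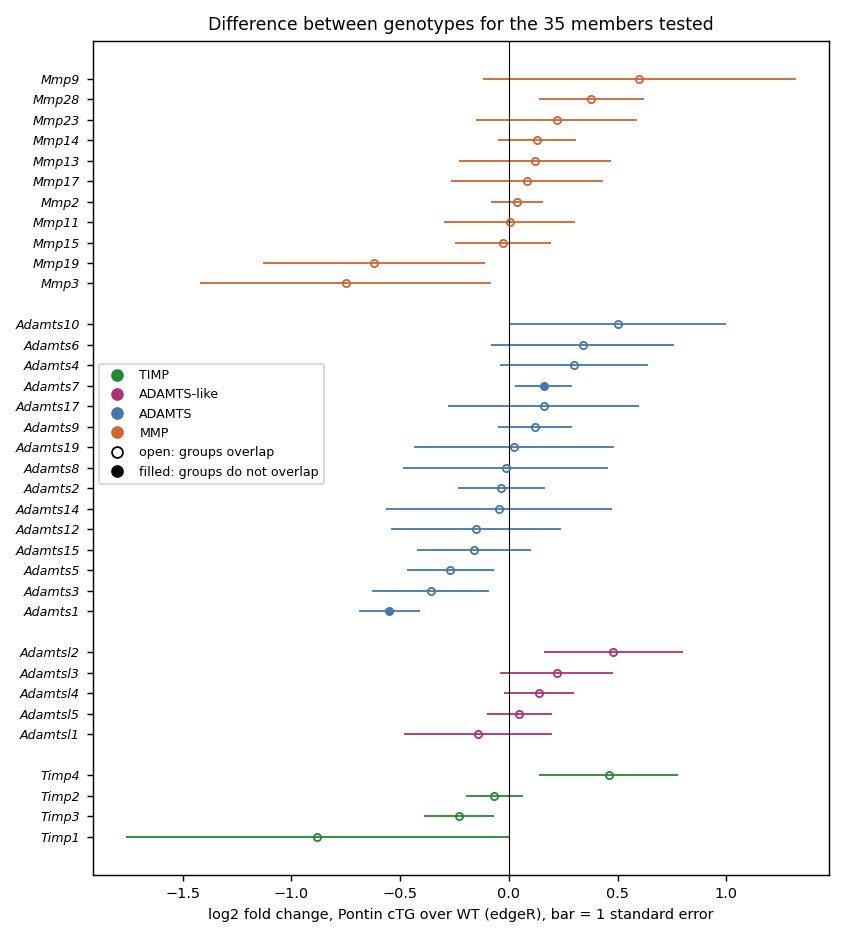
Log2 fold change of Pontin cTG over WT for the 35 members tested, by family, with 1 standard error of edgeR's test as bars; filled points mark genes whose groups did not overlap. The values run from -0.88 (*Timp1*) to 0.6 (*Mmp9*), most bars cross 0, and *Adamts1* at -0.55 has a short bar well below 0.

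*Adamts1* encodes an aggrecanase and versicanase that is induced by inflammation. It had 757.6, 771.8 and 956.9 normalised counts in WT and 566.3, 623.3 and 512.8 in Pontin cTG replicates 1 to 3. The lowest WT heart lay above the highest Pontin cTG heart, with means of 828.8 ± 111.2 and 567.5 ± 55.3 (SD, n = 3 each). Its log2 fold change was -0.55 (standard error 0.14), for which edgeR gave an unadjusted p of 0.00429 that became 0.999 after adjustment, and the two-sided exact permutation test gave p = 0.1, the smallest it can give. In the 16 other settings the log2 fold change stayed between -0.67 and -0.42, with adjusted p values from 0.383 to 1 in edgeR, DESeq2 or limma. *Adamts1* lies next to *Adamts5* on chromosome 16 (GRCm39, chr16:85590715-85698716 for the pair). *Adamts5*, the main aggrecanase of cartilage and a versican-cleaving enzyme in the cardiovascular system, had 507.7, 490.2 and 432.6 normalised counts in WT and 278.3, 478.6 and 428.8 in Pontin cTG hearts. Pontin cTG replicate 2 lay within the WT range, replicate 3 just below it and replicate 1 far below, and the log2 fold change was -0.27 (standard error 0.20). Leaving out Pontin cTG replicate 1 gave -0.063, and leaving out Pontin cTG replicate 2 gave -0.43.

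The other proteoglycan-cleaving members showed no common direction. Of the 6 tested in this role (*Adamts1*, *Adamts4*, *Adamts5*, *Adamts8*, *Adamts9* and *Adamts15*), 2 were above 0 and 4 below, with a median log2 fold change of -0.089. *Adamts9* had 419.6, 420.7 and 390.1 normalised counts in WT and 434.5, 552.3 and 345.6 in Pontin cTG hearts, so the WT values lay inside the Pontin cTG range. Of the 51 members, 14 overlap another protein-coding gene. Whether counting used the strand is not given in the sources used here, so where the neighbour lies on the opposite strand, reads of the shared stretch cannot be told apart. Examples are *Mmp11* (505 counts), which overlaps *Chchd10* (21112 counts) on the opposite strand, and *Adamts7* (2197 counts), which overlaps *Tbc1d2b* (1863 counts). In *Timp2* and *Adamtsl1* the neighbour lies on the same strand.

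*Adamts7*, known for cleaving cartilage oligomeric matrix protein and thrombospondin in the vessel wall, had 361.2, 309.6 and 352.1 normalised counts in WT and 367.1, 410.1 and 366.4 in Pontin cTG hearts. The groups did not overlap, but the gap between the highest WT and the lowest Pontin cTG heart was small, and the log2 fold change was 0.16 (standard error 0.13). It was 0.042 with both libraries numbered 2 left out and 0.069 in limma-voom with quality weights. The procollagen N-proteinases *Adamts2*, *Adamts3* and *Adamts14* remove the amino-terminal propeptide of fibrillar collagens, and all 3 had log2 fold changes below 0, between -0.36 and -0.034, although *Adamts2* was at 0.18 when Pontin cTG replicate 3 was left out and at 0.0084 with library size alone. *Adamts2* had 544, 525 and 555.6 normalised counts in WT and 597.5, 631 and 358.6 in Pontin cTG hearts. The 2 highest and the lowest value were all Pontin cTG libraries, so the group means differed little while the spread was wider (SD 148.6 against 15.5). *Adamts3* had 56.2, 55 and 52.5 normalised counts in WT and 53.7, 31.7 and 42.4 in Pontin cTG hearts. Pontin cTG replicate 1 lay within the WT range and the others below it, for a log2 fold change of -0.36 (standard error 0.27). Without Pontin cTG replicate 1 it was -0.55, and without Pontin cTG replicate 2 it was -0.18.

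*Adamts10*, a fibrillin-binding ADAMTS linked to microfibril disease, showed how much a single library can carry. It had 254.4, 351.1 and 263.8 normalised counts in WT and 203.1, 805.7 and 214.8 in Pontin cTG hearts. Pontin cTG replicate 2 was 3.86 times the mean of the other Pontin cTG hearts, which themselves lay below all WT hearts. The log2 fold change was 0.50 (standard error 0.50) with all libraries and -0.47 without Pontin cTG replicate 2. *Adamts6*, the closest relative of *Adamts10*, had its highest value in the same library (95.9 normalised counts, against 31.9 to 67.3 elsewhere).

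The ADAMTS genes outside the naming rule, given here to account for every role, overlapped between genotypes. *Adamts15*, a versican-cleaving enzyme, had 161.5 to 278.6 normalised counts in WT hearts and 135.3 to 249 in Pontin cTG hearts, with replicate 2 lowest in both groups (log2 fold change -0.16, standard error 0.26). Its direction leaned on WT replicate 1, the highest, since WT replicates 2 and 3 had 161.5 and 195.6, against a Pontin cTG mean of 189.6. *Adamts8* had 25.7 to 38.5 in WT hearts and 11.3 to 44.9 in Pontin cTG hearts, and *Adamts12*, which like *Adamts7* cleaves cartilage oligomeric matrix protein and was named after its values were seen, had 52.5 to 92 and 33.8 to 98.5. In *Adamts12* and in the procollagen proteinase *Adamts14* (14.3 to 27.9 in WT, 8.66 to 37.7 in Pontin cTG hearts), the highest value was in Pontin cTG replicate 2 and the lowest in Pontin cTG replicate 3. *Adamts13*, which cuts von Willebrand factor and is made mainly in the liver, had 3 counts in WT replicate 1 and 0 elsewhere.

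ADAMTS-like genes spanned a wide range of levels, from *Adamtsl5* at 44.9 TPM to *Adamtsl1* at 0.464 TPM. *Adamtsl5* had 1528.5, 1184.6 and 1369.4 normalised counts in WT and 1536.8, 1433.3 and 1252.6 in Pontin cTG hearts, and the groups overlapped, at a log2 fold change of 0.049 (standard error 0.15). *Adamtsl4*, which binds fibrillin-1 and is linked to lens dislocation, had 507.7, 462.2 and 631.6 normalised counts in WT and 665.9, 513.7 and 580.4 in Pontin cTG hearts (log2 fold change 0.14, standard error 0.16). Both were among the steadiest members, with a highest library less than 1.5 times the lowest. *Adamtsl2*, a microfibril-associated protein mutated in geleophysic dysplasia, had 289.6, 272.6 and 356.6 normalised counts in WT and 463.8, 605.4 and 214 in Pontin cTG hearts. Pontin cTG replicates 1 and 2 lay above all WT hearts and replicate 3 below them, and the log2 fold change was 0.48 (standard error 0.32). It was 0.14 when Pontin cTG replicate 2 was left out, 0.80 when replicate 3 was, and 0.064 with both libraries numbered 2 left out. *Adamtsl3* had 76, 93.1 and 48.1 normalised counts in WT and 78.1, 95.9 and 79.7 in Pontin cTG hearts, where the groups overlapped (log2 fold change 0.22, standard error 0.26). Leaving out WT replicate 3 gave 0.0099, and leaving out WT replicate 2 gave 0.45. *Adamtsl1* was the lowest of this family, with 25.7 to 53.8 normalised counts in WT hearts and 29.3 to 47.1 in Pontin cTG hearts.

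Among the MMPs, gelatinase A was the steadiest gene of the whole group. *Mmp2*, which degrades gelatin and basement membrane collagen and is made by fibroblasts, had 742.2, 721.3 and 712.1 normalised counts in WT and 726.4, 793.7 and 711.2 in Pontin cTG hearts. All 6 hearts lay within a highest-to-lowest ratio of 1.12, and the log2 fold change was 0.037 (standard error 0.12). Gelatinase B, *Mmp9*, named after its values were seen, is a neutrophil and macrophage product and was near the lower limit of detection. It had 4.40, 21.3 and 5.59 normalised counts in WT and 16.6, 5.14 and 26 in Pontin cTG hearts, which overlapped (log2 fold change 0.60, standard error 0.72). The value was 1.65 without WT replicate 2, 1.03 when Pontin cTG replicate 2 was left out, 0.041 when replicate 3 of that group was, and 2.08 with both libraries numbered 2 left out. The membrane-type protease *Mmp14* activates the MMP-2 precursor together with TIMP-2. It had 309.4, 393.7 and 289.5 normalised counts in WT and 332.9, 436.7 and 315.3 in Pontin cTG hearts, with replicate 2 highest in both groups and a log2 difference of 0.13 (standard error 0.18) that was -0.03 without Pontin cTG replicate 2. *Mmp15*, its close relative, had 1912.8, 1237.3 and 2108.3 normalised counts in WT and 1936.1, 1364.8 and 1865.9 in Pontin cTG hearts. Here replicate 2 was lowest in both groups, and the log2 fold change was -0.026 (standard error 0.22).

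*Mmp28*, epilysin, is expressed in the heart and by macrophages, and of the members above 0 it had the smallest p. It had 42.9, 47.1 and 51.4 normalised counts in WT and 48.8, 71.9 and 63.2 in Pontin cTG hearts. Pontin cTG replicates 2 and 3 lay above all WT hearts and replicate 1 within them, and the log2 fold change was 0.38 (standard error 0.24). Stromelysin 1, *Mmp3*, cuts proteoglycans and activates other MMP precursors. It had 39.6, 219.9 and 34.7 normalised counts in WT and 54.7, 82.2 and 37.2 in Pontin cTG hearts. WT replicate 2 alone was 5.92 times the mean of the other WT hearts, and the log2 fold change moved from -0.75 (standard error 0.67) with all libraries to 0.64 without it. *Mmp19*, a broad-range secreted MMP, followed the same library. It had 24.2, 71.8 and 26.8 normalised counts in WT and 38.1, 14.6 and 27.7 in Pontin cTG hearts, for a log2 difference of -0.62 (standard error 0.51) that became 0.062 without WT replicate 2. *Mmp12*, named after its values were seen, did not pass the filter on low counts and was not tested. It had 6, 47 and 6 counts in WT and 5, 21 and 5 in Pontin cTG hearts, so that replicate 2 was highest in both groups. *Mmp13*, also named after its values were seen, had 14.5 to 22.4 normalised counts in WT hearts and 15.6 to 23.1 in Pontin cTG hearts.

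The remaining MMP genes that were tested lay outside the naming rule and are given by their ranges. *Mmp23*, a small membrane-associated member, had 67.1 to 99.1 normalised counts in WT hearts and 55.4 to 163.5 in Pontin cTG hearts, with replicates 2 and 3 of the latter at either end (log2 fold change 0.22, standard error 0.37). Its direction leaned on Pontin cTG replicate 2, since replicates 1 and 3 had 85.9 and 55.4, below the WT mean of 87.2. *Mmp11*, stromelysin 3, had 80.4 to 86.4 in WT hearts and 45.9 to 107 in Pontin cTG hearts (0.0035, standard error 0.30), and the membrane-type *Mmp17* had 20.9 to 48.1 and 31.2 to 38.5 (0.083, standard error 0.35). All of these groups overlapped. Of the collagenases, *Mmp13* alone was tested, and *Mmp8*, the neutrophil collagenase, had 4 counts in WT replicate 2, 8 in Pontin cTG replicate 1 and 0 in the other libraries. Those 2 libraries were also the ones with the highest neutrophil marker sums, as given below. *Mmp27* had its highest value in WT replicate 2, with 8.97 normalised counts against at most 2.60 in the other libraries. The untested *Mmp16*, *Mmp24* and *Mmp25* had 47, 1 and 26 counts over all libraries together.

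The 4 inhibitors differed from each other in how steady they were. *Timp2* had 1909.5, 1696.1 and 1674.6 normalised counts in WT and 1781.8, 1663.7 and 1598.2 in Pontin cTG hearts, and the groups overlapped, at a log2 fold change of -0.066 (standard error 0.13). *Timp3*, the inhibitor that stays bound to the matrix and also blocks ADAM17 and the aggrecanases, had 1874.3, 1868.8 and 2031.2 normalised counts in WT and 1990.8, 1488.1 and 1429.3 in Pontin cTG hearts. Pontin cTG replicates 2 and 3 were below all WT hearts and replicate 1 within them. The log2 fold change was -0.23 (standard error 0.16). Leaving out Pontin cTG replicate 1 gave -0.39, and leaving out Pontin cTG replicate 3 gave -0.15.

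*Timp4*, the inhibitor enriched in cardiac tissue, had 320.5, 422.9 and 719.9 normalised counts in WT and 946.1, 580.5 and 491.2 in Pontin cTG hearts. The highest and lowest values differed by 2.95 times and the groups overlapped through WT replicate 3, at a log2 fold change of 0.46 (standard error 0.32). Leaving out Pontin cTG replicate 1 gave 0.14, and leaving out WT replicate 3 gave 0.86. *Timp1*, the inhibitor induced in injury and fibrosis, had 39.6, 325.3 and 43.6 normalised counts in WT and 88.8, 115.6 and 17.3 in Pontin cTG hearts. WT replicate 2 was 7.82 times the mean of the other WT hearts, and the whole range was 18.8 times, the widest of the 35 members tested. Its log2 fold change of -0.88 (standard error 0.88) turned to 0.82 without WT replicate 2 and was -0.0029 in limma-voom with quality weights. *Timp1*, *Timp3* and *Timp4* each lie inside a synapsin gene on the opposite strand (*Syn1*, *Syn3* and *Syn2*), which had 31, 41 and 256 counts over the 6 libraries, against 611, 10612 and 3526 for the inhibitors.

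**Figure D3:**
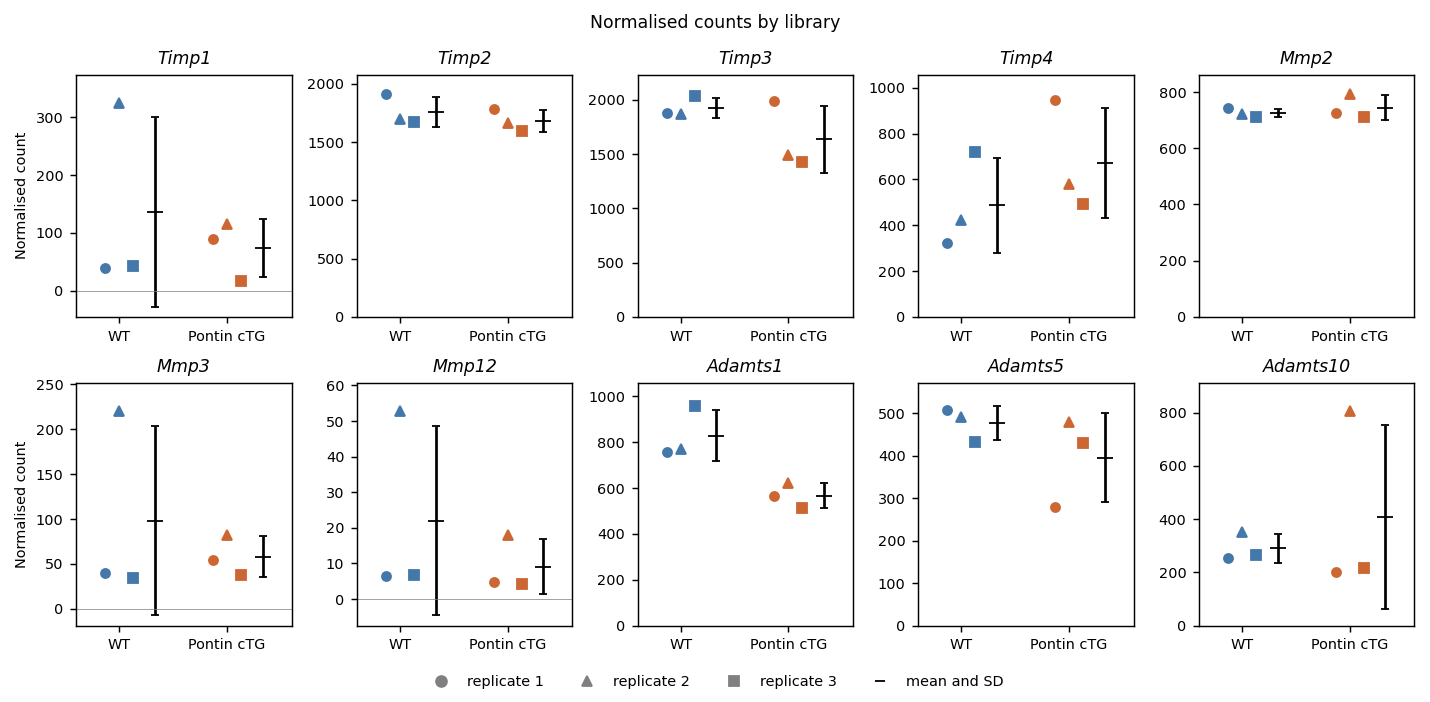
Normalised counts of 10 members in each library, by genotype, with marks for replicates 1 to 3 and the mean and SD of each group (n = 3) beside them; each panel has its own axis. In *Adamts1* the groups are separate, in *Timp1*, *Mmp3* and *Mmp12* WT replicate 2 stands apart, and in *Adamts10* Pontin cTG replicate 2 does.

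Differences between hearts of the same genotype ran through the group. Of the 35 members tested, 17 had their highest value in Pontin cTG replicate 2 (48.6%, against 30.2% of all genes), and they were 9 Adamts, 2 Adamtsl and 6 Mmp genes but no Timp gene. In Pontin cTG replicate 3, 14 members were lowest (40%, against 17.7% of all genes), and 8 members met both descriptions. The median deviation of the members from their own mean was 0.27 on the log2 scale in Pontin cTG replicate 2, -0.14 in replicate 3 and 0.029 in replicate 1, and among WT hearts it was 0.0035 in replicate 1, 0.1 in replicate 2 and -0.044 in replicate 3. WT replicate 2 was highest for *Timp1*, *Mmp3*, *Mmp19* and *Adamtsl1*. In 8 members the highest library was at least 3 times the lowest (*Adamts6*, *Adamts8*, *Adamts10*, *Adamts14*, *Mmp3*, *Mmp9*, *Mmp19* and *Timp1*), and in 6 it was under 1.5 times (*Adamts7*, *Adamtsl4*, *Adamtsl5*, *Mmp2*, *Timp2* and *Timp3*).

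**Figure D4:**
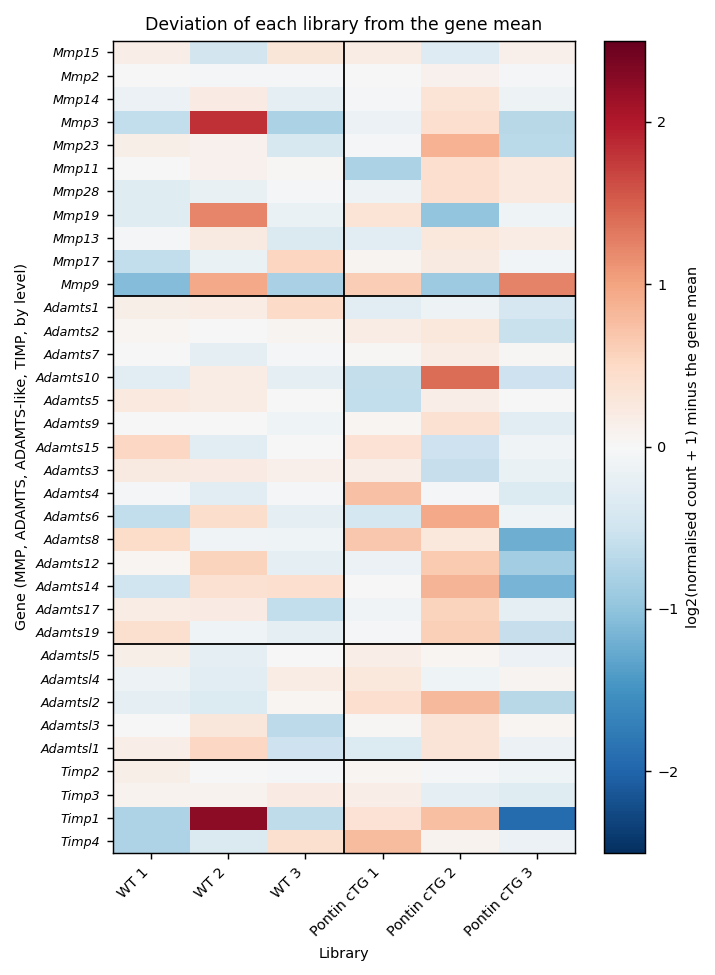
Log2(normalised count + 1) of the 35 members tested minus the mean of the gene, for each library, with red above and blue below the mean and lines between genotypes and families. Pontin cTG replicate 2 is mostly red (highest in 17 members), Pontin cTG replicate 3 mostly blue (lowest in 14), and *Timp1*, *Mmp3* and *Mmp19* are darkest red in WT replicate 2.

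Some lists of cell type markers, for cardiomyocytes, fibroblasts, activated fibroblasts, macrophages and endothelium, had their highest sum in Pontin cTG or WT replicate 2, and others did not. Heart tissue was checked against its defining markers: the 6 cardiomyocyte genes (most abundant *Myh6*) summed to between 588274 and 718250 normalised counts in every library. The 6 activated fibroblast markers, led by *Postn*, summed to 2398.5, 3726.4 and 1780.8 normalised counts in WT and to 2681, 7666.8 and 1073.3 in Pontin cTG hearts, with the highest and lowest sums in Pontin cTG replicates 2 and 3. *Postn*, *Comp*, *Cilp* and *Thbs4* of this list were each highest in Pontin cTG replicate 2 and lowest in Pontin cTG replicate 3. *Cthrc1* had 72.8 normalised counts in Pontin cTG replicate 2, 31.4 in WT replicate 2 and 1.12 to 4.33 in the other libraries. *Fap* did not follow these libraries, with 46.3, 70.7 and 73.8 in WT and 53.7, 65.1 and 50.2 in Pontin cTG hearts. The 8 general fibroblast markers, led by *Dcn*, summed to 18300.1, 27407.6 and 16048.1 in WT and to 18106.2, 25161.4 and 15579.6 in Pontin cTG hearts. The sum of the 7 macrophage markers, led by *Csf1r*, was highest in WT replicate 2, at 5178 against 2524.3 to 4002.1 elsewhere, although *C1qa* and *C1qc* were highest in Pontin cTG replicate 2 (847.7 and 723.5, against 771.8 and 619.2 in WT replicate 2). *Csf1r* had 753.2, 1075.8 and 797 normalised counts in WT and 693.2, 747.5 and 563.9 in Pontin cTG hearts, which did not overlap (log2 fold change -0.39, standard error 0.18). It was 1 of 7 macrophage markers lower without overlap, where 3.63% of all genes were. WT replicate 2 stood apart here, so the size of the *Csf1r* value leaned in part on that library. Of the 6 cardiomyocyte markers, *Tnni3* (0.30) and *Myl2* (0.24) were higher and *Actc1* (-0.11) lower without overlap, beside 4.7% of all genes in the higher and 3.63% in the lower direction. The 8 neutrophil markers, led by *Csf3r*, were low, with sums of 14.3, 117.8 and 32.4 in WT and 148.4, 33.4 and 56.3 in Pontin cTG hearts, and *Ly6g* and *Elane* at 0. No fibroblast or neutrophil marker passed an unadjusted p of 0.05 in edgeR, and 1 of 7 macrophage markers (*Mrc1*) did, in the lower direction, where 1.03% of all genes did. *Mrc1* had 611.2, 1130.7 and 534.3 normalised counts in WT and 596.5, 478.6 and 367.3 in Pontin cTG hearts, with WT replicate 2 far above the rest. Of the 7 macrophage markers, 3 had log2 fold changes above 0 and 4 below. The 5 endothelial markers, led by *Kdr*, summed to 11666.3, 14930.2 and 10447 in Pontin cTG replicates 1 to 3 against 12148.5 to 12299.9 in WT. Each was highest in Pontin cTG replicate 2. *Pecam1*, *Cdh5* and *Tie1* were lowest in Pontin cTG replicate 3, but *Kdr* and *Emcn* were lowest in Pontin cTG replicate 1. The other lists had sums of 13434.4 to 15714.5 (6 smooth muscle and pericyte genes), 11695.3 to 22338.3 (5 erythroid genes), 51.6 to 101.5 (5 mesothelial genes) and 0 to 6.83 (4 adipocyte genes). The part of these cell types in the values of the members was not tested.

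**Figure D5:**
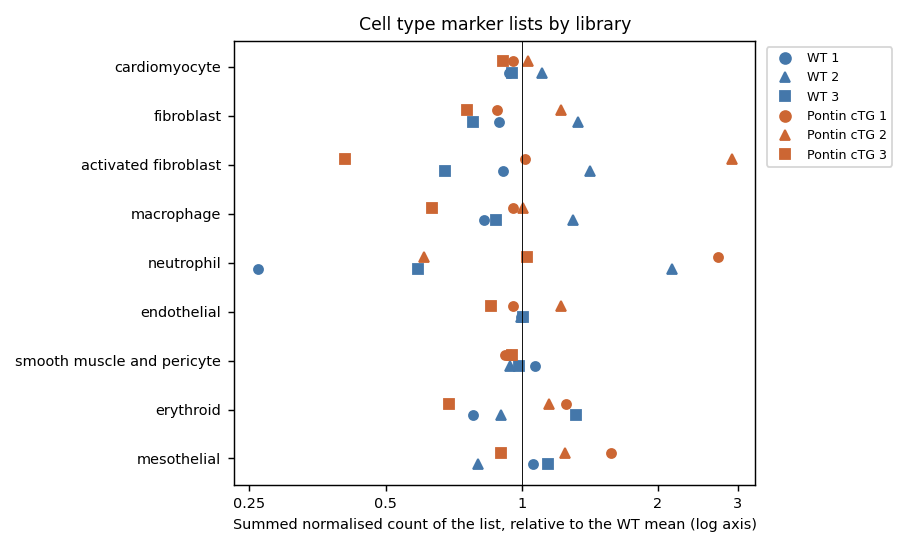
Summed normalised counts of each marker list in each library, relative to the WT mean, on a log axis; blue is WT, orange Pontin cTG, and shapes are replicates 1 to 3. Of the 9 lists drawn (the adipocyte list, at 0 in some libraries, is not), activated fibroblast markers spread widest within the Pontin cTG group (1073.3 to 7666.8 normalised counts), and WT replicate 2 is highest for macrophage and fibroblast markers.

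Genes that act with the proteases were also without a call. Of 16 activators and inhibitors, 14 were tested, 6 above and 8 below 0 (median log2 fold change -0.049), with *Plg* and *Klkb1* at 0 in all libraries. *Furin*, the convertase that removes the propeptide of membrane-type MMPs and ADAMTS proteases, was named after its values were seen. It had 1430.5, 1019.7 and 1605.3 normalised counts in WT and 1678.3, 756.9 and 1366.1 in Pontin cTG hearts, with replicate 2 lowest in both groups. *Reck*, a membrane-anchored MMP inhibitor, showed a log2 difference of -0.16 (standard error 0.23), which was 0.033 without WT replicate 2. *Lrp1*, the receptor that clears protease and inhibitor complexes, had -0.23 (standard error 0.35), which was 0.10 when Pontin cTG replicate 3 was left out and -0.58 when replicate 2 was. Of 8 ADAM sheddases, 3 were above and 5 below 0 (median -0.078). The groups did not overlap in *Adam10*, with 976.8, 919.8 and 924.5 normalised counts in WT and 873.8, 794.6 and 859.3 in Pontin cTG hearts, for a log2 difference of -0.16 (standard error 0.12). This made 1 of 8 sheddases lower without overlap, where 3.63% of all genes were. *Adam15* showed a log2 difference of 0.30 (standard error 0.22), and its highest library was Pontin cTG replicate 2 at 898.2 normalised counts, against 465.2 to 564.3 in the others, and without it the log2 difference was -0.019.

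Of 28 matrix substrates, 25 were tested, 12 above and 13 below 0 (median log2 fold change -0.015). Fibromodulin (*Fmod*), a collagen-binding proteoglycan, had the largest log2 difference of these lists at 2.08 (standard error 1.10). It had 7.71, 49.4 and 12.3 normalised counts in WT and 20.5, 253.4 and 18.2 in Pontin cTG hearts, so the value was that of Pontin cTG replicate 2, and without this library it was -0.25. *Lamc1*, the laminin gamma 1 chain of basement membranes, had 3286.1, 3665.9 and 3038.4 normalised counts in WT and 2930, 3055.9 and 1973.3 in Pontin cTG hearts (log2 fold change -0.33, standard error 0.19). Without Pontin cTG replicate 3, the *Lamc1* value was -0.15. Versican (*Vcan*), the proteoglycan that *Adamts1* and *Adamts5* cut, had 348, 579.9 and 351 normalised counts in WT and 527.2, 489.8 and 144.7 in Pontin cTG hearts, with wide overlap. It was named after its values were seen. Of 16 other matrix proteases and crosslinkers, 14 were tested, 9 above and 5 below 0 (median 0.064). *Bmp1*, the procollagen C-proteinase, showed a log2 difference of 0.32 (standard error 0.31), which was -0.21 without Pontin cTG replicate 2. The macrophage cathepsin *Ctss* had -0.43 (standard error 0.32), with WT replicate 2 highest at 574.3 normalised counts against 227 to 319.4 in the others, and 0.088 without that library. In all 4 lists 0 genes reached an unadjusted p of 0.05 in edgeR, or an adjusted one.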

How the data were processed

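Per the labels, heart RNA of 3 Pontin cTG and 3 WT mice was sequenced after 14 days of Ang-II. The authors deposited whole-number counts per gene with no normalisation, in 1 table (0 sample columns unmatched). The study's methods name Trimmomatic, STAR, mm10 and Gencode, whereas the submitters' processing notes name fastp, HISAT2, featureCounts and GRCm39; no versions or strand setting are given there. The table's coordinates are those of GRCm39. Libraries differed beyond sampling noise (chi-square per gene at least 5.62).

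Low genes were removed by filterByExpr at a minimum count of 10, TMM factors scaled the libraries, and edgeR 4.0.16 (quasi-likelihood, robust, genotype only; R 4.3.3) compared the groups, with Benjamini-Hochberg adjustment over 13888 genes. The common biological coefficient of variation was 0.197. A standard error is the log2 fold change divided by the square root of F. TPM used the table's gene lengths. Members, lists and tests were chosen with earlier results of these data known. Named genes are the 4 Timp genes, the 4 highest of each other family, the 5 smallest p in each direction, non-overlapping members and the 2 smallest p of each related list. *Mmp9*, *Mmp12*, *Mmp13*, *Adamts12*, *Furin* and *Vcan* were chosen after their values were seen, and other members and markers are given to account for each role or list. Alternatives were DESeq2 1.42.0, its size factors in edgeR, library size alone, no filter, a minimum of 10 counts in all libraries, protein-coding or non-mitochondrial genes only, a replicate block, limma-voom (3.58.1) with quality weights and each library left out. Leaving out both libraries numbered 2 was added after seeing the data. Promoter sequences are from RefSeq (GRCm38.p6). They were searched for 36 of 51 members, with chromosome 18 (*Adamts19*) left out beforehand.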

Additional observations from a re-analysis of the deposited data

How the results depend on the processing

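In every setting tried 0 members passed an adjusted p of 0.05, and the median log2 fold change of the members was -0.12 at the lowest, with Pontin cTG replicate 2 left out, and 0.15 at the highest, with Pontin cTG replicate 3 left out. *Adamts1* kept its direction and an unadjusted p under 0.05 in all 16 alternatives. The number of members at an unadjusted p under 0.05 was 1, and became 4 in limma-voom with quality weights (*Adamts1*, *Adamts5*, *Mmp9* and *Timp4*), 3 with both libraries numbered 2 left out, and 1 to 3 with each library left out in turn (3 with Pontin cTG replicate 2 left out, and 2 with Pontin cTG replicate 1 or 3 or WT replicate 3 left out). The share of all genes at this p moved too: 5.83% in limma-voom, 4.15% with both left out and 4.91%, 4.48%, 2.87% and 1.68% with the libraries in the order just given, beside 11.4%, 8.57%, 8.57% and then 5.56% (each of the last 3) of the members. Members above 0 ranged from 12 of 35 (without Pontin cTG replicate 2) to 24 of 35 (without WT replicate 2). Where the number tested differed most, they were 23 of 45 in DESeq2, 23 of 45 with no filter and 17 of 32 with a minimum of 10 counts in all libraries. Members whose groups did not overlap numbered 2 to 8, with 6, 4 and 5 without Pontin cTG replicates 1, 2 and 3 and 4 and 8 without WT replicates 2 and 3, since fewer libraries overlap less often. These were 17.1%, 11.4%, 14.3%, 11.4% and 22.9% of the 35 members, against 21%, 21.5%, 18%, 16.4% and 17% of all genes. Without WT replicate 1 there were 2 such members (5.71%), against 13.2% of all genes. Over all genes, 3 passed in limma-voom, 3 with no filter, 1 in DESeq2, 3 without Pontin cTG replicate 2 and 6 with both libraries numbered 2 left out, none of them members.

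Log2 fold changes that changed sign under limma-voom and with both libraries numbered 2 left out were, in this order, -0.011 and -0.015 (*Mmp2*), 0.083 and 0.30 (*Mmp3*), 0.17 and 0.36 (*Mmp19*), -0.23 and -0.31 (*Adamts10*), -0.0068 and -0.054 (*Adamtsl5*), 0.05 and 0.17 (*Reck*) and -0.022 and -0.12 (*Bmp1*). *Timp1* was 0.33 with both left out, and *Adamts2* 0.0084 with library size alone. Values of at least 0.1 in size that moved by over 1.5 times with no change of sign became, in limma-voom, -0.0029 (*Timp1*), 0.069 (*Adamts7*), 1.55 (*Mmp9*), 0.83 (*Timp4*), -0.54 (*Adamts5*), 0.26 (*Adamtsl2*), -0.21 (*Adamts3*), 0.23 (*Adamtsl4*), -0.13 (*Timp3*), 0.0056 (*Mmp13*), -0.37 (*Adamts12*), 1.07 (*Fmod*), -0.16 (*Ctss*) and 0.10 (*Adam15*). With both libraries numbered 2 left out they became 0.042 (*Adamts7*), 2.08 (*Mmp9*), -0.41 (*Adamts5*), 0.064 (*Adamtsl2*), -0.18 (*Adamts3*), 0.35 (*Adamtsl3*), 0.25 (*Mmp28*), -0.39 (*Adamts12*), -0.35 (*Lrp1*), 0.94 (*Fmod*), -0.06 (*Ctss*) and 0.019 (*Adam15*). With each library left out in turn, log2 fold changes that changed sign ranged over -0.019 to 0.49 (*Adam15*), -0.47 to 0.83 (*Adamts10*), -0.64 to 0.15 (*Adamts12*), -0.18 to 0.18 (*Adamts2*), -0.043 to 0.14 (*Adamtsl5*), -0.21 to 0.57 (*Bmp1*), -0.62 to 0.088 (*Ctss*), -0.25 to 3.27 (*Fmod*), -0.58 to 0.10 (*Lrp1*), -0.019 to 0.28 (*Mmp13*), -0.03 to 0.27 (*Mmp14*), -0.22 to 0.14 (*Mmp15*), -0.94 to 0.062 (*Mmp19*), -0.013 to 0.068 (*Mmp2*), -1.15 to 0.64 (*Mmp3*), -0.30 to 0.033 (*Reck*), -1.38 to 0.82 (*Timp1*) and -0.10 to 0.00041 (*Timp2*). Without a change of sign, the ranges were -0.55 to -0.18 (*Adamts3*), -0.43 to -0.063 (*Adamts5*), 0.10 to 0.21 (*Adamts7*), 0.14 to 0.80 (*Adamtsl2*), 0.0099 to 0.45 (*Adamtsl3*), 0.041 to 0.28 (*Adamtsl4*), 0.041 to 1.65 (*Mmp9*), 0.25 to 0.53 (*Mmp28*), -0.39 to -0.15 (*Timp3*), 0.14 to 0.86 (*Timp4*) and -0.44 to -0.15 (*Lamc1*). The causes were not tested.

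The replicate numbers were checked for pairing: deviations of same-numbered libraries correlated at 0.069, 0.43 and 0.19 for replicates 1, 2 and 3. No source names a shared litter or batch, so whether same-numbered libraries share more than a number cannot be told. With the replicate block, 0 members passed the adjusted threshold, 1 the unadjusted one, and 18 lay above 0 (median log2 fold change 0.035). The block moved *Adamts10* to 0.22, *Mmp3* to -0.41 and *Bmp1* to 0.20, and no other named log2 fold change of at least 0.1 in size by over 1.5 times. The member with the widest interval at these depths was *Timp1*. The 10 untested members did not pass the filter on low counts, although DESeq2 and the setting with no filter covered 45 members.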
